A study of Mus musculus with 8 samples.

Results

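Toll-like receptors recognise molecules of microbes and of damaged tissue and pass the signal on through a small set of adaptor proteins, kinases and a ubiquitin ligase. Gene expression of 10 of these genes was examined in retina of the rd10 mouse, whose mutant Pde6b, a rod phosphodiesterase gene, leads to loss of rods and then cones. The 10 genes, chosen by symbol, were the receptors Tlr2, Tlr3, Tlr4 and Tlr7, the co-receptor Cd14, the adaptors Myd88 and Ticam1, the kinases Irak1 and Irak4 and the ubiquitin ligase Traf6. Each had 1 row among the 54532 genes in the files, and all 10 passed the filter on low counts that left 17725 genes for testing.

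The libraries were made from poly(A)-selected retinal RNA. The treated group, sIVs, which the series title spells out as small intracellular vesicles, had 4 libraries, numbered 2 to 5, and the control group, named PBS, had 4, numbered 1 to 4. All 8 libraries carry the rd10 strain name, and no wild-type retina was analysed here. The sources used here give neither the vesicles' source, dose, route and timing nor the animals' age and sex. They number biosamples without tying each to an animal, so the p-values rest on spread that may be partly technical.

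In retina, Toll-like receptors are best known from microglia, the resident immune cells, and are also found in Müller glia. Most of the family, including TLR2, TLR4 and TLR7, signals through MyD88, which recruits IRAK4 and IRAK1 and then TRAF6 to activate NF-kappaB. TLR3 uses instead the adaptor TRIF, encoded by Ticam1, which leads also to interferon genes, and TLR4 can use both. CD14 hands bacterial lipopolysaccharide to TLR4 and assists other receptors.

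The sIVs libraries were not alike. Totals ran from 14640235 to 16989737 counts over the 8 libraries, and the biological coefficient of variation was 22.3% among the sIVs libraries and 8.83% among the PBS libraries. Rod photoreceptor markers, all 10 of which were tested and none of which was at 0, summed to 8303 to 38390 CPM (read counts scaled to library size) in sIVs and to 33770 to 40890 CPM in PBS, and their median stood at -1.84 and -1.90 on the log2 scale against the PBS mean in sIVs libraries 3 and 4. The 12 microglia and macrophage markers, all tested and none at 0, summed to 238, 483, 596 and 191 CPM in sIVs libraries 2 to 5, against 177 to 309 CPM in PBS. The 6 monocyte markers summed to 15.9, 87.8, 76.7 and 17.1 CPM in sIVs libraries 2 to 5, against 11.4 to 21.8 CPM in PBS, and 5 of the 6 were below the filter on low counts. Of these, Chil3 stood at 0, 11.1, 12.4 and 1.19 CPM and Ly6c2 at 0.0670, 1.12, 3.09 and 0 CPM in sIVs libraries 2 to 5, and both were at 0 in every PBS library. Neutrophil and lymphocyte markers summed to 24.4 to 38.1 CPM and 1.34 to 2.65 CPM in sIVs, against 24.01 to 31.2 CPM and 1.57 to 2.24 CPM in PBS. Mmp9 weighs most in the neutrophil sum, at log2 CPM of 4.44 to 4.82 in sIVs and 4.36 to 4.82 in PBS. Below the filter, S100a8, S100a9 and Cxcr2 were above every PBS library in sIVs libraries 3, 4 and 5. For S100a8 log2 CPM was -0.42, -0.68 and 0.53 there, against -2.97 (no reads) to -1.91 in PBS. Library 2 held no reads of these 3 genes. In such bulk libraries more cells of a type and more RNA per cell cannot be told apart. The members' fold changes and the list medians are therefore also given without sIVs libraries 3 and 4, left out after earlier results were known.

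Of the 10 genes 9 had a positive fold change, as did 49% of all genes tested. None of the 10 passed the edgeR quasi-likelihood test of sIVs against PBS after adjustment over 17725 genes, where 0% of all genes passed. At an unadjusted p under 0.05, 8 of the 10 were higher and none was lower, while 1704 of all genes were higher and 998 lower. The share called higher over all genes was 9.61%, and the share called lower 5.63%. The median log2 fold change was 0.78 over the 10 genes and -0.01 over all genes tested. Without sIVs libraries 3 and 4 it was 0.10 over the 10 genes, 1 of which, Myd88, was higher at an unadjusted p under 0.05 against 6.73% of all genes. After adjustment that fit called 0.011% of genes higher and 0.00548% lower, and no member. With limma-voom and sample quality weights, which give libraries unequal weight, 9 of the 10 were called higher, in a fit that called 14% of all genes higher and 14% lower. Of the 10, Myd88 alone had all 4 sIVs libraries above every PBS library, a pattern found in 4.42% of all genes, and none had all 4 below, found in 3.36%.

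**Figure D1:**
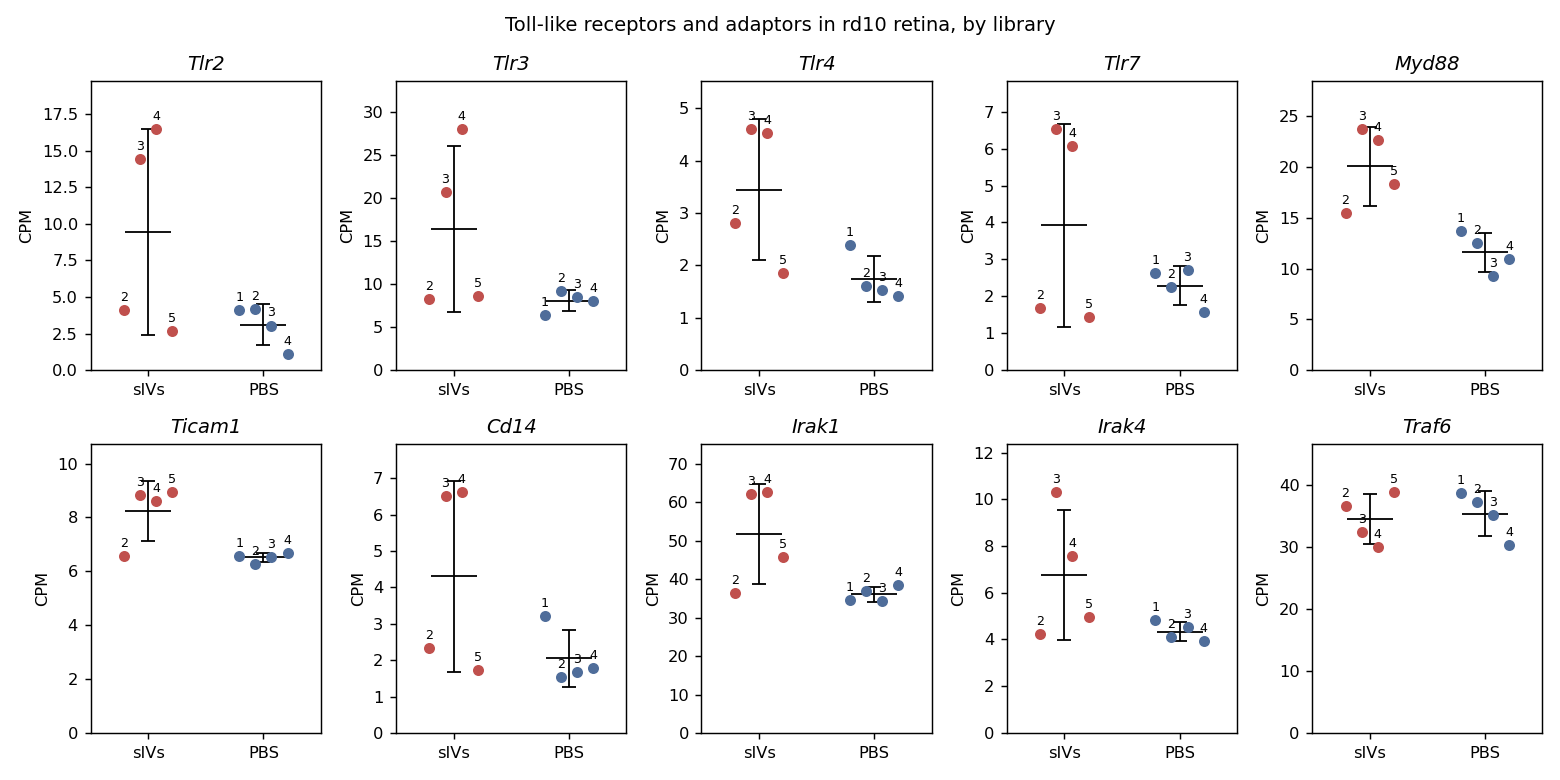
CPM of each gene by library, sIVs libraries 2 to 5 at the left and PBS libraries 1 to 4 at the right of each panel, with the mean and SD (n = 4) in black. The receptors, Cd14, Myd88, Irak1 and Irak4 are highest in sIVs libraries 3 and 4. Myd88 is above all PBS libraries in all 4 sIVs libraries, and Traf6 overlaps throughout.

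Tlr2 recognises bacterial lipoproteins and several molecules of damaged tissue (ENSMUSG00000027995, chromosome 3, 83836272 to 83841767, minus strand). It stood at 4.08, 14.4, 16.5 and 2.68 CPM in sIVs libraries 2 to 5 and at 4.12, 4.17, 3.05 and 1.14 CPM in PBS libraries 1 to 4. Libraries 3 and 4 were far above every PBS library, while libraries 2 and 5 lay inside the PBS range. Its log2 fold change was 1.59 ± 0.59 (SE, adjusted p = 0.27 in edgeR), the highest estimate of the 10 genes, and 0.10 without libraries 3 and 4. PBS library 4, the lowest of the controls, held 16 reads of Tlr2.

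Tlr3, an endosomal receptor for double-stranded RNA (ENSMUSG00000031639, chromosome 8, 45395665 to 45411080, minus strand), was also highest in sIVs libraries 3 and 4. It stood at 8.24, 20.7, 28.0 and 8.65 CPM in sIVs libraries 2 to 5 and at 6.44, 9.24, 8.54 and 8.04 CPM in PBS libraries 1 to 4. On the log2 scale the fold change was 1.03 ± 0.38 (SE, adjusted p = 0.262 in edgeR), and 0.07 without libraries 3 and 4. Tlr3 had the highest CPM of the 4 receptors in every library, a measure that takes no account of gene length. Per length, in FPKM, Tlr2 was above Tlr3 in sIVs libraries 3 and 4 and in PBS library 1, and below it in the others.

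Tlr4, the lipopolysaccharide receptor (ENSMUSG00000039005, chromosome 4, 66827584 to 66930284, plus strand), was low. It stood at 2.81, 4.60, 4.53 and 1.85 CPM in sIVs libraries 2 to 5 and at 2.38, 1.60, 1.53 and 1.42 CPM in PBS libraries 1 to 4. Of the sIVs libraries, 3 were above every PBS library, and library 5 was above 3 of the 4. The estimated log2 fold change was 0.99 ± 0.32 (SE, adjusted p = 0.224 in edgeR), and 0.41 without libraries 3 and 4. These values rest on 31 to 82 reads per library in sIVs and 20 to 37 in PBS.

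Tlr7, an endosomal receptor for single-stranded RNA encoded on chromosome X (ENSMUSG00000044583, 167304929 to 167330558, minus strand), had sIVs libraries on both sides of PBS. It stood at 1.67, 6.52, 6.08 and 1.43 CPM in sIVs libraries 2 to 5 and at 2.64, 2.24, 2.71 and 1.57 CPM in PBS libraries 1 to 4. Libraries 3 and 4 were above every PBS library, library 5 was below every one, and library 2 was above PBS library 4 alone. The log2 fold change was 0.78 ± 0.49 (SE, adjusted p = 0.476 in edgeR), and -0.57 without libraries 3 and 4 (adjusted p = 0.454 in edgeR).

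Cd14 (ENSMUSG00000051439, chromosome 18, 36725074 to 36726736, minus strand) stood at 2.34, 6.52, 6.63 and 1.73 CPM in sIVs libraries 2 to 5 and at 3.22, 1.54, 1.67 and 1.78 CPM in PBS libraries 1 to 4. As with Tlr2 and Tlr3, libraries 3 and 4 were high and libraries 2 and 5 lay inside the PBS range, whose upper end was set by PBS library 1. Its log2 fold change was 1.07 ± 0.46 (SE, adjusted p = 0.315 in edgeR), and -0.02 without libraries 3 and 4.

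Myd88, the adaptor of most of the receptors (ENSMUSG00000032508, chromosome 9, 119335934 to 119341411, minus strand), stood at 15.5, 23.7, 22.7 and 18.4 CPM in sIVs libraries 2 to 5 and at 13.7, 12.6, 9.30 and 10.96 CPM in PBS libraries 1 to 4. The groups did not overlap: the lowest sIVs library was library 2 and the highest PBS library was library 1. Myd88 averaged 20.1 ± 3.85 CPM in sIVs and 11.6 ± 1.92 CPM in PBS (SD, n = 4 each). On the log2 scale the fold change was 0.79 ± 0.17 (SE, adjusted p = 0.158 in edgeR), with the smallest p of the 10 genes, 98th among all genes tested. It was 0.54 without libraries 3 and 4 (adjusted p = 0.227 in edgeR) and 0.89 without library 2 (adjusted p = 0.0137 in edgeR). DESeq2, with all 8 libraries, gave it an adjusted p of 0.00323, in a fit that called 2.52% of all genes higher and 0.502% lower.

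In the annotation Myd88 lies inside the span of Slc22a14 on the same strand and overlaps Acaa1a on the other strand by 1736 bases. Slc22a14 had at most 0.128 CPM in any library. Acaa1a, a peroxisomal thiolase gene, stood at 124, 101, 101 and 137 CPM in sIVs libraries 2 to 5 and at 126, 121, 117 and 121 CPM in PBS libraries 1 to 4 (log2 fold change -0.07 ± 0.10 SE, adjusted p = 0.792 in edgeR). The sources used here give no strand setting for the counting, so reads of Acaa1a counted under Myd88 cannot be told apart from its own.

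Ticam1, encoding TRIF (ENSMUSG00000047123, chromosome 17, 56269319 to 56276786, minus strand), stood at 6.56, 8.82, 8.62 and 8.95 CPM in sIVs libraries 2 to 5 and at 6.57, 6.29, 6.52 and 6.69 CPM in PBS libraries 1 to 4. Libraries 3, 4 and 5 were above every PBS library and library 2 lay inside the narrow PBS range. Its highest sIVs library was library 5, unlike the receptors. The estimated log2 fold change was 0.34 ± 0.14 (SE, adjusted p = 0.297 in edgeR), and 0.25 without libraries 3 and 4.

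Irak1 and Irak4 encode the kinases that MyD88 assembles. Irak1 (ENSMUSG00000031392, chromosome X, 74013914 to 74023918, minus strand) stood at 36.5, 62.2, 62.8 and 45.7 CPM in sIVs libraries 2 to 5 and at 34.7, 36.9, 34.4 and 38.4 CPM in PBS libraries 1 to 4. Library 2 lay inside the PBS range and the other 3 sIVs libraries above it. The log2 fold change was 0.52 ± 0.16 (SE, adjusted p = 0.205 in edgeR), 0.19 without libraries 3 and 4 and 0.66 without library 2 (adjusted p = 0.0145 in edgeR). Without library 2 Irak1 and Myd88 were the members that passed, in a fit that called 4.83% of all genes higher and 2.56% lower.

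Irak4 (ENSMUSG00000059883, chromosome 15, 94543643 to 94581815, plus strand) stood at 4.22, 10.3, 7.57 and 4.95 CPM in sIVs libraries 2 to 5 and at 4.83, 4.10, 4.51 and 3.91 CPM in PBS libraries 1 to 4. Libraries 3 and 4 stood apart from PBS, library 5 was just above the highest PBS library, and library 2 was inside the range. Its log2 fold change was 0.64 ± 0.27 (SE, adjusted p = 0.308 in edgeR), and 0.08 without libraries 3 and 4. Irak4 overlaps Twf1, an actin-binding protein gene on the other strand, by 3865 bases. Twf1 stood at 53.8 to 70.5 CPM in sIVs and at 49.3 to 53.2 CPM in PBS, with a log2 fold change of 0.31 ± 0.09 (SE, adjusted p = 0.185 in edgeR), so that reads shared between them are uncertain for Irak4, the lower of the pair.

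Traf6, the ubiquitin ligase on which the MyD88 arm converges (ENSMUSG00000027164, chromosome 2, 101678429 to 101701669, plus strand), had the fold change nearest to 0. It stood at 36.7, 32.5, 30.05 and 39.0 CPM in sIVs libraries 2 to 5 and at 38.8, 37.4, 35.3 and 30.4 CPM in PBS libraries 1 to 4. The groups overlapped over nearly their whole range, and libraries 3 and 4 were the lowest of the sIVs libraries. On the log2 scale the fold change was -0.04 ± 0.11 (SE, adjusted p = 0.896 in edgeR), and 0.09 without libraries 3 and 4. Scaled by library totals, which moved the median over all genes from -0.01 to 0.07, it was 0.03.

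**Figure D2:**
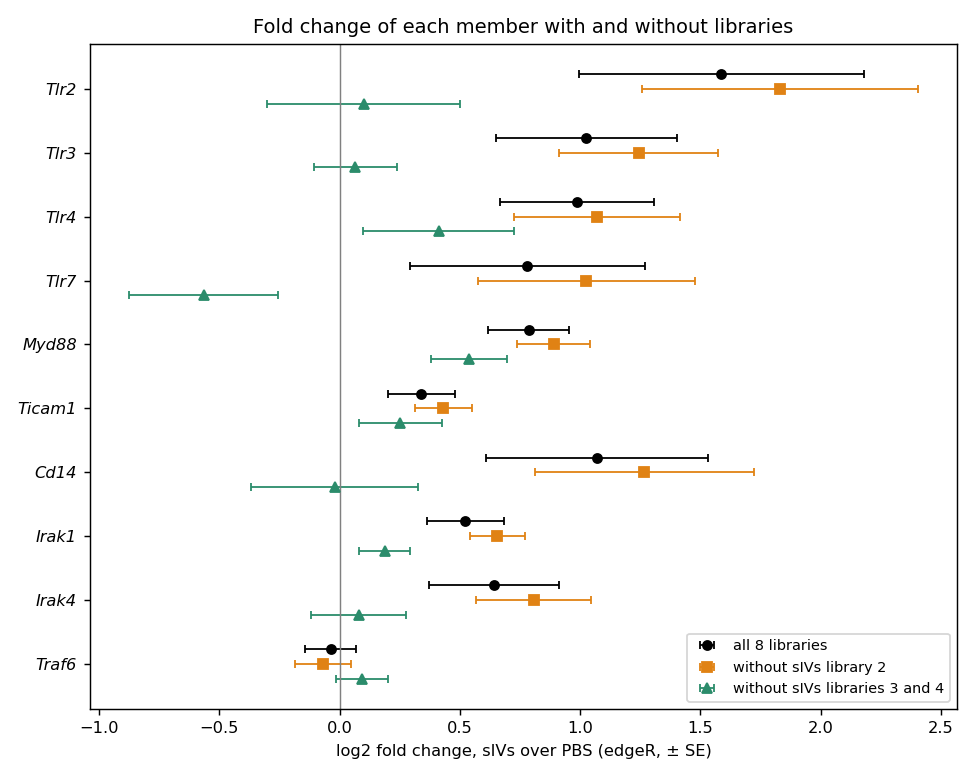
Fold change (edgeR, log2 of sIVs over PBS, bars are SE) of each gene with all 8 libraries (black), without sIVs library 2 (orange) and without sIVs libraries 3 and 4 (green). Without libraries 3 and 4 Tlr2, Tlr3, Cd14 and Irak4 lie within 0.1 of 0, Tlr7 is at -0.57 and Myd88 at 0.54.

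Relative to the PBS mean, sIVs libraries 3 and 4 held 4.62 and 5.28 times as much Tlr2, 2.57 and 3.47 times as much Tlr3, 2.65 and 2.61 times as much Tlr4, and 2.85 and 2.65 times as much Tlr7. For Cd14 these ratios were 3.18 and 3.23, for Irak4 2.38 and 1.74, for Myd88 2.04 and 1.95 and for Irak1 1.72 and 1.74. For Ticam1 they were 1.35 and 1.32 and for Traf6 0.917 and 0.848. In sIVs library 5 Myd88 stood at 1.58, Ticam1 at 1.37 and Irak1 at 1.27 times the PBS mean, while Tlr2, Cd14 and Tlr7 stood at 0.860, 0.844 and 0.625 times. In sIVs library 2 Tlr4 and Myd88 stood at 1.62 and 1.33 times and Tlr7 at 0.731 times. The receptors and Cd14 were thus high in the same 2 libraries that were high in microglial markers. Myd88, Irak1 and Irak4 were also highest in those 2 libraries. The 10 markers of Müller glia and astrocytes, all tested and none at 0, had a median of -0.17, 0.53, 0.72 and -0.43 in sIVs libraries 2 to 5 on the log2 scale, against -0.06 to 0.03 in PBS, and summed to 4821 to 7921 CPM in sIVs and 6253 to 7563 CPM in PBS. These markers did not move together, and 7 of the 10 had positive fold changes. Glul was below every PBS library in all 4 sIVs libraries (log2 CPM 9.95 to 10.68 against 10.91 to 11.41). Vim was above every PBS library in all 4 (8.33 to 9.49 against 7.40 to 8.09). The 7 markers of vascular endothelium were all tested and none was at 0. They summed to 406, 719, 729.9 and 375 CPM in sIVs libraries 2 to 5, against 419.6 to 467.9 CPM in PBS. Of the 7, Kdr weighs most in the sum, and Kdr was above every PBS library in sIVs libraries 3 and 4. The median of the 7 was -0.10, 0.21, 0.41 and -0.03 in sIVs libraries 2 to 5 on the log2 scale. In PBS it was -0.06 to 0.13. The part of these cell types in the members' values was not tested.

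**Figure D3:**
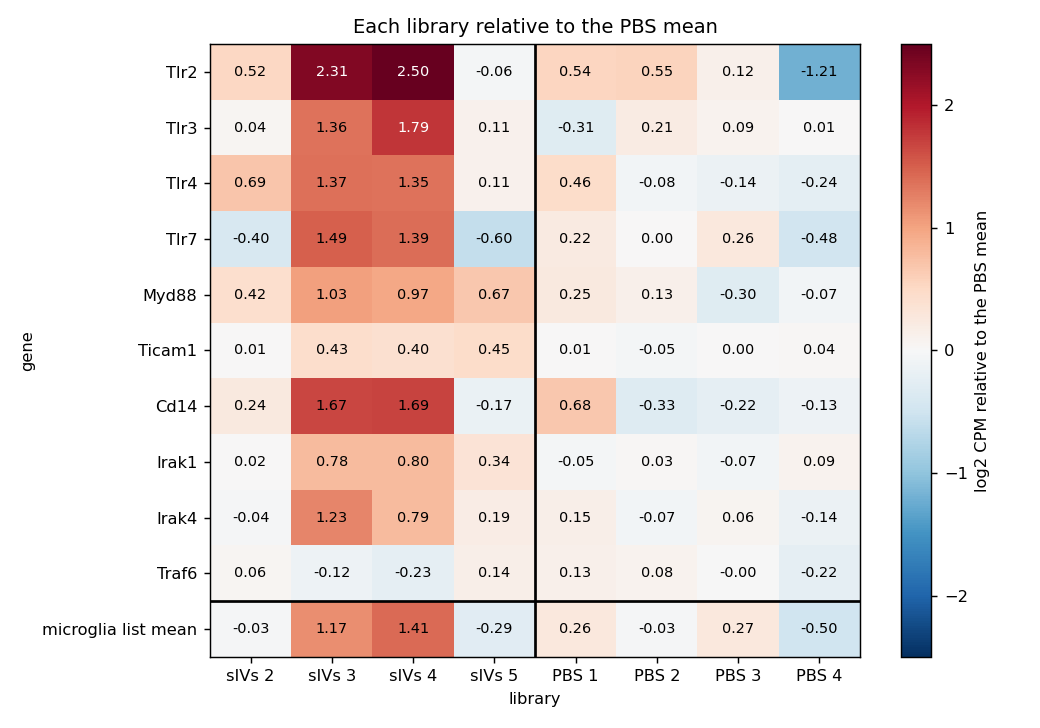
Log2 CPM of each gene in each library relative to the PBS mean (sIVs left, PBS right of the line), with the mean of the 12 microglia and macrophage markers in the lowest row. The marker row reads 1.17 and 1.41 in sIVs libraries 3 and 4 and -0.03 and -0.29 in libraries 2 and 5, and the receptor rows share that split.

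Each gene was also set against the mean log2 CPM of the 12 microglia and macrophage markers in the same library. None of the 10 ratios passed a test of sIVs against PBS (exact two-sided permutation tests over 70 relabellings, adjusted over the 10 genes, lowest adjusted p = 0.743, lowest unadjusted p = 0.143). This exact permutation test cannot go below p = 0.0286 before adjustment. After adjustment over the 10 genes a single ratio at that floor could not pass, so several would have to reach it together. The largest positive difference, sIVs mean minus PBS mean, was 0.76 on the log2 scale for Tlr2 (exact permutation p = 0.143), with 2 of 4 sIVs libraries above every PBS library. For Tlr3 it was 0.26, for Tlr4 0.32, for Cd14 0.30 and for Myd88 0.21. The largest negative difference was -0.60 for Traf6 (exact permutation p = 0.371).

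Against the 10 markers of homeostatic microglia the differences were larger, and the median log2 fold change of those markers was 0.34, against 0.71 for the 12 microglia and macrophage markers. Tlr2 stood 1.24, Tlr3 0.75 and Irak4 0.465 higher in sIVs on the log2 scale (exact permutation p = 0.0571 for each). Tlr4 stood 0.80 and Myd88 0.70 higher (exact permutation p = 0.0286 for each, the smallest possible). None passed after adjustment (adjusted p = 0.114 in the permutation test for each gene named here). In this comparison P2ry12 and Siglech, receptor genes of resting microglia, had means of 4.48 and 1.81 CPM in sIVs against 6.97 and 4.17 CPM in PBS, and the other 8 markers had higher means in sIVs.

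Levels can be compared between genes per length, in FPKM. In sIVs the order of mean levels was Irak1 at 10.95 ± 2.71, Myd88 at 7.77 ± 1.47, Traf6 at 4.37 ± 0.514, Tlr3 at 3.14 ± 1.84, Tlr2 at 3.11 ± 2.32, Ticam1 at 2.75 ± 0.370, Cd14 at 2.73 ± 1.67, Irak4 at 1.34 ± 0.547, Tlr7 at 0.959 ± 0.670 and Tlr4 at 0.619 ± 0.241 FPKM (SD, n = 4). In PBS it was Irak1 at 7.63 ± 0.380, Myd88 at 4.50 ± 0.748, Traf6 at 4.48 ± 0.477, Ticam1 at 2.17 ± 0.0527, Tlr3 at 1.54 ± 0.227, Cd14 at 1.3 ± 0.50, Tlr2 at 1.03 ± 0.471, Irak4 at 0.861 ± 0.0838, Tlr7 at 0.559 ± 0.130 and Tlr4 at 0.311 ± 0.0793 FPKM (SD, n = 4). Irak1, Myd88 and Traf6 thus had higher means than all 4 receptors in both groups, while Ticam1 was above all 4 in PBS and below Tlr3 and Tlr2 in sIVs. In sIVs, neighbours in this order overlapped in range except Myd88 and Traf6. In PBS the ranges of Irak1 and Myd88, of Traf6 and Ticam1, of Ticam1 and Tlr3, and of Irak4 and Tlr7 did not overlap, and those of the other neighbours did. Tlr2 stood above Ticam1 in 2 of 4 sIVs libraries, libraries 3 and 4, and below it in every PBS library.

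**Figure D4:**
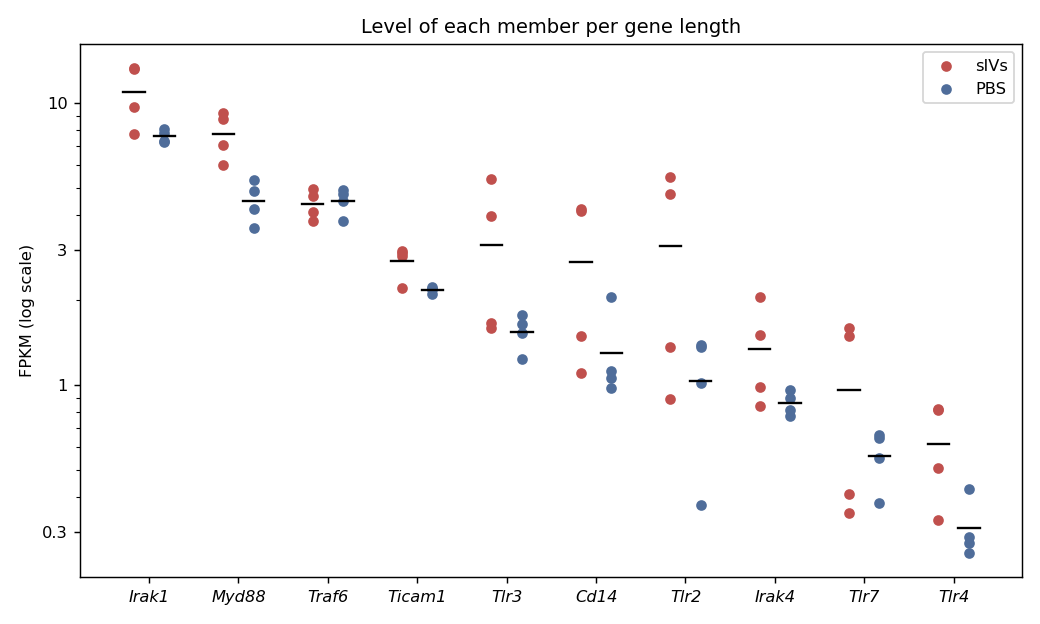
FPKM of each gene (log axis) in sIVs libraries (red, left) and PBS libraries (blue, right), ordered by the PBS mean, with a black bar at each group's mean. Irak1 is highest and Tlr4 lowest in both groups, and Tlr2, Cd14, Tlr3 and Tlr7 spread most in sIVs.

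The balance of the adaptors and of the surface receptors was read as a ratio of FPKM in each library, for pairs chosen after the values were seen and with no test. Myd88 stood at 2.74, 3.12, 3.06 and 2.38 times Ticam1 in sIVs libraries 2 to 5 and at 2.43, 2.32, 1.66 and 1.90 times in PBS libraries 1 to 4, so that 3 of 4 sIVs libraries were above every PBS library. Tlr2 stood at 2.68, 5.78, 6.70 and 2.68 times Tlr4 in sIVs libraries 2 to 5 and at 3.19, 4.79, 3.69 and 1.47 times in PBS libraries 1 to 4. Libraries 2 and 5 lay inside the PBS range of that ratio.

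Of the 10 genes, 7 had promoter sequences in the RefSeq table (GRCm38.p6, from 250 bases before to 50 after the annotated start). Tlr4, Tlr7 and Cd14 had no entry. The windows were searched on both strands for AP-1 (TGANTCA), the STAT element GAS (TTCNNNGAA), the interferon-stimulated response element ISRE and the NF-kappaB consensus, factors at the end of these receptors' pathways. Tlr2, Tlr3 and Myd88, which are printed here because their windows hold a match, are given 5′ to 3′ on the gene's strand with the matches in capitals. They lie at chr3:83841559-83841858, chr8:45410331-45410630 and chr9:119339969-119340268, all on the minus strand.
Tlr2: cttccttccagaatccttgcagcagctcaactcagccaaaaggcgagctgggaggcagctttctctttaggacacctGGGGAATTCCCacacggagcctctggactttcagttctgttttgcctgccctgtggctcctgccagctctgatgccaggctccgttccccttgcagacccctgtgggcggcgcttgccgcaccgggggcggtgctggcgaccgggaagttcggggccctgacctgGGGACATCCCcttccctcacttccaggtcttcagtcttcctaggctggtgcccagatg
Tlr3: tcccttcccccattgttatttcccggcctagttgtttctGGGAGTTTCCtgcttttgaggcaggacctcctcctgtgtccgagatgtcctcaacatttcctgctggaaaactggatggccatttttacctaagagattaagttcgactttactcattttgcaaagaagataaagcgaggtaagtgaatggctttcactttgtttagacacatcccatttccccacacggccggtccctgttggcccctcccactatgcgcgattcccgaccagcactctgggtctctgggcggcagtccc
Myd88: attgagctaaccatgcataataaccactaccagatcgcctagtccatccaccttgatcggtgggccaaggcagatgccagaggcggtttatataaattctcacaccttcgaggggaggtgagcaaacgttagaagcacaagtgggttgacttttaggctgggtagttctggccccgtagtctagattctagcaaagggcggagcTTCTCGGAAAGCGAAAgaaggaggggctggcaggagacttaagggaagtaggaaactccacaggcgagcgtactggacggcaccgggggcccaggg

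The Tlr2 window holds the NF-kappaB consensus at positions -173 and -172, which overlap in 1 run, and at -8, counted from the annotated start. That start is the RefSeq table's, and for Tlr2, Tlr3 and Myd88 it lies inside the gene span printed above. The positions are therefore not distances from the end of that span. The Tlr3 window holds it at -211. The Myd88 window holds a GAS match at -46 and an ISRE match, GAAAGCGAAA, at -40, which overlap. The windows of Ticam1, Irak1, Irak4 and Traf6 hold none of the 4 motifs, and no window holds AP-1. Among all 32851 promoter windows of the table, 4.51% hold the NF-kappaB consensus, 3.44% the ISRE, 8.3% the GAS and 7.81% the AP-1 motif. The matches are matches of letters in a fixed window and describe no binding in these retinas.

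The genes nearest to each member in profile were taken by the root mean square difference of log2 CPM relative to the PBS mean over the 8 libraries, among 14039 protein-coding candidates averaging 1 CPM or more. For Tlr2 these were Plau, Ccl3 and Cd68, with differences of 0.154, 0.224 and 0.275. For Tlr3 they were Tcirg1, Tap2 and Ptprc (0.128, 0.157 and 0.165). Tlr7 was nearest to Cx3cr1, Syk and Pik3cg (0.13, 0.173 and 0.178), and Cd14 to Apbb1ip, Slc13a3 and Lcp1 (0.167, 0.189 and 0.262). Tlr4 was nearest to S1pr2, Zwilch and Micall2 (0.178, 0.188 and 0.195). Cd68, Ptprc and Cx3cr1 are also in the microglial marker lists.

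The adaptors and kinases had other neighbours. Myd88 was nearest to Klf10, St3gal4 and Wnt9a (0.095, 0.109 and 0.112), Ticam1 to Mthfd1, Rps9 and Bcar1 (0.0451, 0.0475 and 0.0514), and Traf6 to Zfp395, Scaf11 and Gspt1 (0.0393, 0.0455 and 0.047). Irak1 was nearest to Rpsa, Plec and Ehd2 (0.0531, 0.0596 and 0.0631) and Irak4 to Mgst1, Rps12 and Prex1 (0.105, 0.122 and 0.123). The ribosomal protein genes among these have near-identical copies that can share reads. Genes with little spread between libraries give small differences, so the values compare neighbours of 1 member and not members with each other.

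The other genes of the pathway were read in 9 lists of 89 genes, of which 72 were tested. None passed the edgeR test after adjustment, as for all genes. Ligands and receptors are described first. Of the 8 other Toll-like receptors 3 were tested, Tlr1, Tlr9 and Tlr13, all with positive fold changes and a median of 0.85 on the log2 scale, and of -0.05 without sIVs libraries 3 and 4. Tlr13, a mouse receptor for bacterial ribosomal RNA, stood at 1.67, 7.64, 7.24 and 1.43 CPM in sIVs libraries 2 to 5 and at 1.07 to 1.99 CPM in PBS (log2 fold change 1.52 ± 0.56 SE, adjusted p = 0.264 in edgeR, and -0.02 without libraries 3 and 4). Tlr5, Tlr6, Tlr8, Tlr11 and Tlr12 were below the filter, with at most 1.37 CPM in any library.

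Among 8 tested ligands that tissue itself releases or lays down, 4 had positive fold changes and the median was 0.08, and -0.03 without libraries 3 and 4. That median leaves out S100a8 and S100a9, which were below the filter. Their log2 CPM was -2.97 (no reads) to 0.53 and -2.97 to 0.85 in sIVs. In PBS it was -2.97 to -1.91 and -2.97 to -1.89. Saa3, an acute-phase serum amyloid gene, stood at 3.01, 15.7, 19.3 and 7.52 CPM in sIVs libraries 2 to 5, against 1.48, 1.73, 0.278 and 0.0711 CPM in PBS libraries 1 to 4. All 4 sIVs libraries were above every PBS library (log2 fold change 3.64 ± 0.74 SE, adjusted p = 0.153 in edgeR, and 2.53 without libraries 3 and 4). Fn1, the matrix protein fibronectin, was also above every PBS library in all 4 (log2 fold change 0.90 ± 0.23 SE, adjusted p = 0.177 in edgeR). Hmgb1, a nuclear protein released by dying cells, overlapped, with a log2 fold change of -0.06 ± 0.09 (SE, adjusted p = 0.799 in edgeR).

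The co-receptor and trafficking list had a median of 0.60 over 9 tested genes, 7 of them positive, and of -0.04 without libraries 3 and 4. Slc15a3, an endolysosomal transporter gene, had a log2 fold change of 2.51 ± 0.62 and Rab7b, a regulator of endosomal transport, of 1.11 ± 0.37 (SE, adjusted p = 0.168 and 0.236 in edgeR). Ly96, which encodes the MD-2 partner of TLR4, was low, at 0.597 to 2.05 CPM in sIVs and 0.569 to 0.966 CPM in PBS. Pik3ap1, of the 3 other adaptors tested, had a log2 fold change of 1.10 ± 0.48 (SE, adjusted p = 0.316 in edgeR), and of -0.11 without libraries 3 and 4.

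The relay downstream of the receptors stood near 0 as a list. Over its 16 genes of kinases and ubiquitin enzymes, the median log2 fold change was 0.003 and 9 were positive, and the median was 0.04 without libraries 3 and 4. By library the median was 0.01, 0.05, -0.04 and 0.003 in sIVs libraries 2 to 5, within the PBS range of -0.05 to 0.06. Ripk1, a kinase shared with death receptors, stood at 14.5, 20.1, 21.8 and 21.1 CPM in sIVs libraries 2 to 5, against 13.8, 14.7, 13.2 and 8.89 CPM in PBS libraries 1 to 4 (log2 fold change 0.62 ± 0.18 SE, adjusted p = 0.193 in edgeR, and 0.49 without libraries 3 and 4). Map3k8, the kinase TPL2, had a log2 fold change of 1.4995 ± 0.59 (SE, adjusted p = 0.284 in edgeR), and of -0.30 without libraries 3 and 4.

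The 11 tested negative regulators had a median of 0.15, and of 0.10 without libraries 3 and 4. Atf3, a stress-induced repressor of Toll-like receptor targets, stood at 19.6, 40.3, 38.0 and 34.9 CPM in sIVs libraries 2 to 5, against 17.3, 13.9, 10.6 and 9.82 CPM in PBS libraries 1 to 4. Every sIVs library was above every PBS library (log2 fold change 1.36 ± 0.24 SE, adjusted p = 0.136 in edgeR, and 1.08 without libraries 3 and 4). Socs1, a feedback inhibitor of cytokine signalling, had a log2 fold change of 1.54 ± 0.51 (SE, adjusted p = 0.227 in edgeR). Tnfaip3, encoding the deubiquitinase A20 and named after its values were seen, was the single pathway gene lower at an unadjusted p under 0.05. It stood at 232, 78.0, 70.3 and 158 CPM in sIVs libraries 2 to 5, against 224, 208, 229.6 and 249.4 CPM in PBS libraries 1 to 4 (log2 fold change -0.76 ± 0.33 SE, adjusted p = 0.32 in edgeR, and -0.22 without libraries 3 and 4). The rod marker list was also lowest in libraries 3 and 4, and its part in this value was not tested.

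Interferon regulatory factors had a median of 1.24 over 5 genes, 4 of them positive, and of 0.41 without libraries 3 and 4. Irf1 had a log2 fold change of 1.35 ± 0.31 (SE, adjusted p = 0.161 in edgeR). Irf3, a factor of the TRIF arm that the kinases TBK1 and IKK-epsilon phosphorylate, was at 43.5 to 68.4 CPM in sIVs and 57.5 to 59.8 CPM in PBS, with a log2 fold change of -0.07 ± 0.15 (SE, adjusted p = 0.866 in edgeR).

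Genes linked to MyD88 had a median of 1.11 over 8 tested, all positive, and of 0.41 without libraries 3 and 4. Among them Icam1, an adhesion molecule, and Lcn2, encoding lipocalin-2, had log2 fold changes of 1.25 ± 0.34 and 2.24 ± 0.62 (SE, adjusted p = 0.182 and 0.185 in edgeR). Tnf, Il1b, Il6, Il12b, Cxcl1 and Cxcl2 were below the filter on low counts, with at most 1.62 CPM in any library. Genes linked to TRIF and interferon had the highest median of the 9 lists, 2.14 over 9 tested, all positive, and of 0.49 without libraries 3 and 4. Ifit2, an interferon-induced antiviral gene, stood at 29.0, 114, 150.2 and 42.2 CPM in sIVs libraries 2 to 5 and at 21.7, 25.3, 24.02 and 21.1 CPM in PBS libraries 1 to 4 (log2 fold change 1.87 ± 0.45 SE, adjusted p = 0.168 in edgeR). Usp18, a brake on interferon signalling, had one of 2.14 ± 0.57 (SE, adjusted p = 0.178 in edgeR). Ifnb1, the interferon beta gene itself, had 0.0621 and 0.221 CPM in sIVs libraries 3 and 4 and 0 in the other 6 libraries.

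Without sIVs libraries 3 and 4 the log2 fold change was 1.65 for Lcn2, 0.65 for Icam1, 0.63 for Ifit2, 0.70 for Usp18 and 0.62 for Irf1. It was 1.13 for Slc15a3, 0.25 for Rab7b, 0.35 for Fn1 and 0.55 for Socs1. For Lcn2, log2 CPM was 5.87 and 7.81 in sIVs libraries 2 and 5, against 5.96, 5.96, 5.58 and 2.88 in PBS libraries 1 to 4. Of these 2 sIVs libraries only library 5 was above the PBS range of Lcn2.

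By library, TRIF-linked targets had a median of 0.51, 2.31, 3.34 and 0.33 in sIVs libraries 2 to 5, and the MyD88-linked ones 0.44, 1.64, 1.31 and 0.52, in each case above the highest PBS library, at 0.16 and 0.29. The interferon regulatory factors, at 0.29 to 2 in sIVs, and the negative regulators, at 0.08 to 0.29, were also above it in every sIVs library. Their highest PBS medians were 0.25 and 0.04. Library 4 was highest for TRIF-linked targets and library 3 for MyD88-linked ones. Among the members, Tlr2, Tlr3, Cd14 and Irak1 were highest in library 4, Tlr4, Tlr7, Myd88 and Irak4 in library 3, and Ticam1 and Traf6 in library 5. Without sIVs library 2, 20 of the 72 pathway genes passed the edgeR test, 19 higher and 1 lower, the lower one being Tnfaip3 (adjusted p = 0.0303 in edgeR). Of the 20, 6 were TRIF-linked targets, 4 interferon regulatory factors, 3 MyD88-linked targets and 2 ligands. That fit called 4.83% of all genes higher and 2.56% lower.

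**Figure D5:**
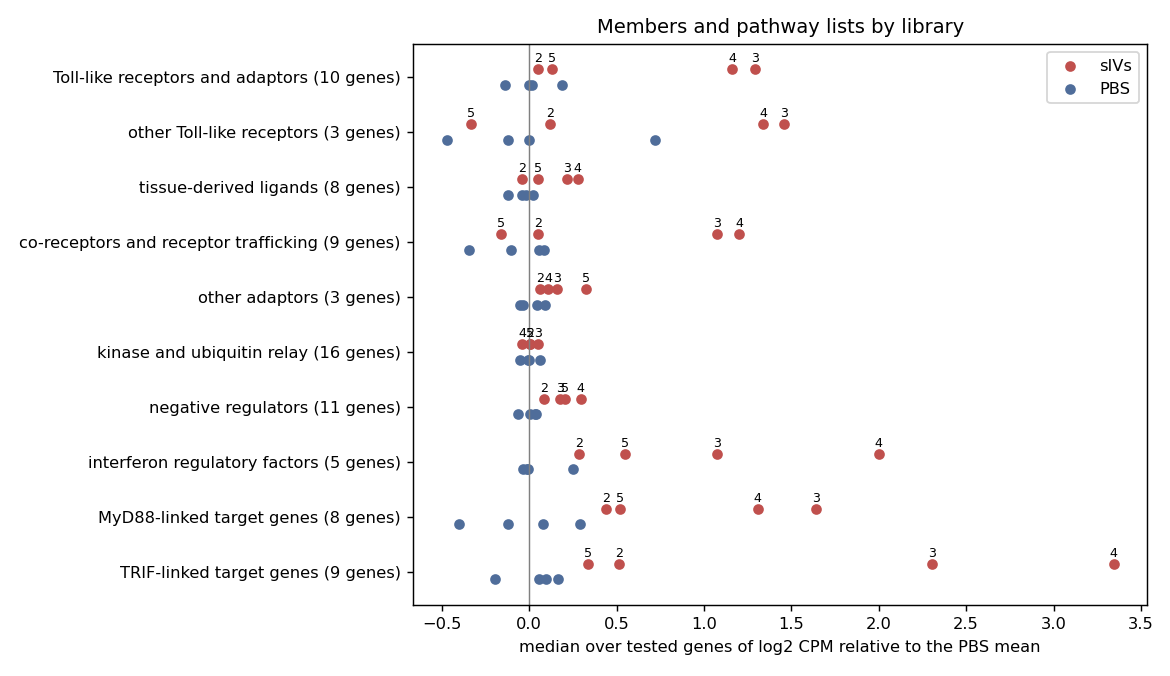
Median over tested genes of log2 CPM relative to the PBS mean, for the 10 members and the 9 pathway lists, with sIVs libraries (red, numbered 2 to 5) above PBS libraries (blue). Both target lists have all 4 sIVs libraries to the right of PBS, at 0.33 to 3.34 for TRIF-linked and 0.44 to 1.64 for MyD88-linked genes. So do the interferon regulatory factors, at 0.29 to 2, and the negative regulators, at 0.08 to 0.29. The kinase and ubiquitin relay stays between -0.05 and 0.06.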

How the data were processed

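RNA was measured by sequencing in 8 retinal libraries, grouped and numbered by their titles. Per the labels' protocols, poly(A) RNA went into dUTP strand-marked libraries read in pairs. The submitters' processing notes name mm10; the sources used here name no aligner, counter or strand setting. The authors deposited raw counts and FPKM values for 54532 genes. Deposited FPKM equalled the count per length and library total times 1 constant per library (0.93 to 1.03). Of the gene IDs, 54409 were in GENCODE M21, 53499 with identical coordinates.

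Counts were tested with edgeR 4.0.16 (R 4.3.3): filterByExpr, TMM, glmQLFit and glmQLFTest with the group as the only term, and adjusted p (Benjamini-Hochberg) under 0.05. CPM uses TMM-adjusted totals. Profiles use log2 CPM with a prior count of 2. SEs come from the F statistic. Alternatives were DESeq2 1.42.0, limma 3.58.1 (voom, and log2(FPKM + 0.1) or log2(FPKM + 1)), other scalings and filters, libraries left out and replicate blocks. The tests were checked on simulated data. Every pair of libraries differed beyond sampling noise (lowest chi-square per gene 3.65, between sIVs library 2 and PBS library 1). The lowest value between 2 PBS libraries was 3.84. Against sIVs libraries 3 and 4, sIVs library 2 stood at 61.5 and 74.5, so it was closer to PBS than to them.

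The members and lists were chosen with earlier results of these data known. Besides the members, the genes named are, from each pathway list, those past the threshold or, where none passed, the 2 of smallest p (1 where under 6 were tested), and the 3 of nearest profile to each member. Others named were chosen after their values were seen, such as Hmgb1, Ly96, Irf3, Ifnb1, Tlr1, Tlr9, P2ry12, Siglech, Tnfaip3, Ly6c2, Chil3, Mmp9, S100a8, S100a9, Cxcr2, Kdr, Glul, Vim and genes below the filter.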

Additional observations from a re-analysis of the deposited data

Results flagged for a closer look

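Of 20 groups of 4 libraries examined, 1 for each gene and group, 2 held a library far from the other 3 by Dixon's test at the 95% level, and chance gives about 1 in 20. Ticam1 stood at 6.56 CPM in sIVs library 2, against 8.62 to 8.95 CPM in the other 3 sIVs libraries. Cd14 stood at 3.22 CPM in PBS library 1, against 1.54 to 1.78 CPM in the other 3 PBS libraries.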

How the results depend on the processing

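With all 8 libraries edgeR called 0 genes, 0 pathway genes and 0 members. Counts of genes, pathway genes and members past the threshold were 536, 13 and 1 with DESeq2, 4973, 41 and 9 with limma-voom and sample quality weights, and 152, 5 and 1 with no low-count filter. Leaving out 1 library gave 0 to 1331 genes, 0 to 20 pathway genes and 0 to 2 members, all above 0 coming from the fit without sIVs library 2. Without sIVs libraries 3 and 4 they were 3, 0 and 0, and at an adjusted p of 0.1 they were 11, 0 and 0. The other settings called none. Myd88 was the member called with DESeq2 (adjusted p = 0.00323) and with no filter (adjusted p = 0.0441), and its log2 fold change ran from 0.54 to 0.98 over all settings. With quality weights Traf6 alone did not pass (adjusted p = 0.207). Signs turned for Tlr7 (-0.57) and Cd14 (-0.0216) without sIVs libraries 3 and 4, and for Traf6 there (0.0911), with library totals (0.0318) and without sIVs library 4 (0.0226) or PBS library 1 (0.00714), with a range of -0.106 to 0.0226 when 1 library was left out. The cause was not tested. No ratio to the microglial markers passed under any setting (lowest adjusted p per setting from 0.114 to 0.952), though with 3 against 4 libraries the smallest possible p is 0.0571 and with 2 against 4 it is 0.133. Deviations of same-numbered libraries from their group means had correlations of -0.06 to 0.05 by title number and -0.07 to 0.10 by biosample number. By title number 1 of 3 sIVs libraries and 0 of 3 PBS libraries correlated best with their own number. By biosample number 2 of 4 did so in each group. These values show no clear pairing by number and cannot exclude one. The replicate block called 0 genes and 0 members with either numbering, as did libraries 2, 3 and 4 of each group unblocked. The lowest PBS library held 16 reads of Tlr2, 20 of Tlr4, 22 of Tlr7 and 24 of Cd14, which limits the precision of these 4 genes.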
